A study of Mus musculus with 10 samples.

Results

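Death receptor and TRAIL signalling was followed through 10 genes, chosen by their symbols: the ligands Tnfsf10 and Tnf, the receptors Tnfrsf10b, Fas, Tnfrsf1a and Tnfrsf1b, the adaptor Fadd, the protease Casp8, its inhibitor Cflar, and Xaf1. All 10 were present among the 18603 genes of the count table, and all 10 were among the 15883 genes tested, each above the low-count limit of 0.373 CPM (counts scaled to the library total) in all 5 tumours of both groups. The treated group, SLR14, held 5 tumours injected with lipid nanoparticles that carried SLR14, a triphosphorylated stem-loop RNA that activates the cytosolic RNA sensor RIG-I. The vehicle group, PBS, held 5 tumours injected with PBS alone, so that the effects of the RNA and of its lipid carrier cannot be told apart. Both groups were RENCA tumours, grown from a single mouse kidney cancer cell line under the skin of female Balb/c mice whose age is not given in the sources used here. Mice were randomized at tumour volumes of 100 to 150 mm3, received 3 intratumoral injections 48 h apart, and tumours were taken 24 h after the last injection.

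Death receptors are members of the tumour necrosis factor receptor superfamily that carry a cytoplasmic death domain. When TRAIL (Tnfsf10) or Fas ligand engages its receptor, the adaptor Fadd gathers caspase-8 into a signalling complex. Active caspase-8 starts apoptosis through the executioner caspases. The caspase-like protein c-FLIP (Cflar) competes with caspase-8 in that complex, and the IAP protein XIAP blocks the executioner caspases further down.

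Total counts per tumour were 17931895 to 39842608 in SLR14 and 24161644 to 34024137 in PBS tumours (exact permutation p = 0.881). SLR14 2 was the shallowest library. SLR14 2 was the highest or lowest tumour of its group for 6 of the 10 genes and PBS 5 for 8 of the 10. The other SLR14 tumours were so for 3 to 4 genes, and the other PBS tumours for 1 to 5. Values without 1 or both of SLR14 2 and PBS 5 are given beside some of the results. Leaving them out removes extreme values of these same genes, so those fits are not independent checks. Of the 7 renal carcinoma markers examined, Krt8, Krt18, Pax8, Pax2 and Cdh16 were well expressed in every tumour, with a mean of 1610 CPM for Krt8 in SLR14 and 1420 CPM in PBS tumours. Cdh16 was at 187 to 294 CPM in SLR14 and 315 to 409 CPM in PBS tumours. It did not pass an adjusted p of 0.05 (log2 fold change -0.52, edgeR adjusted p = 0.0788). Lhx1 stayed under 1 CPM, and Epcam was at 0.178 to 1.4 CPM in SLR14 and 2.09 to 6.11 CPM in PBS tumours. Of the 7 markers Epcam alone passed, lower in SLR14 (log2 fold change -2.42, edgeR adjusted p = 0.0324), against 0.29% of all genes called lower. These were whole tumours, in which a change in the number of cells of a type and a change in RNA per cell cannot be told apart.

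After SLR14, 1 of the 10 genes, Xaf1, rose past an adjusted p of 0.05, 0 fell, and 9 did not pass. In the same test 0.963% of all genes were called, 0.674% higher and 0.29% lower in SLR14 tumours. Xaf1 was about 2.09-fold higher, and Tnfsf10, the TRAIL gene, had a fold change of 2.66 but did not pass (edgeR adjusted p = 0.0801). The receptors, Fadd, Casp8, Cflar and Tnf had fold changes between 0.893 and 1.19. The median log2 fold change of the 10 genes was 0.20, with 8 positive and 2 negative, and it was -0.01 over all genes tested. At an unadjusted p under 0.05 there were 2 of the 10 genes, Xaf1 and Tnfsf10, against 10.8% of all genes.

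**Figure D1:**
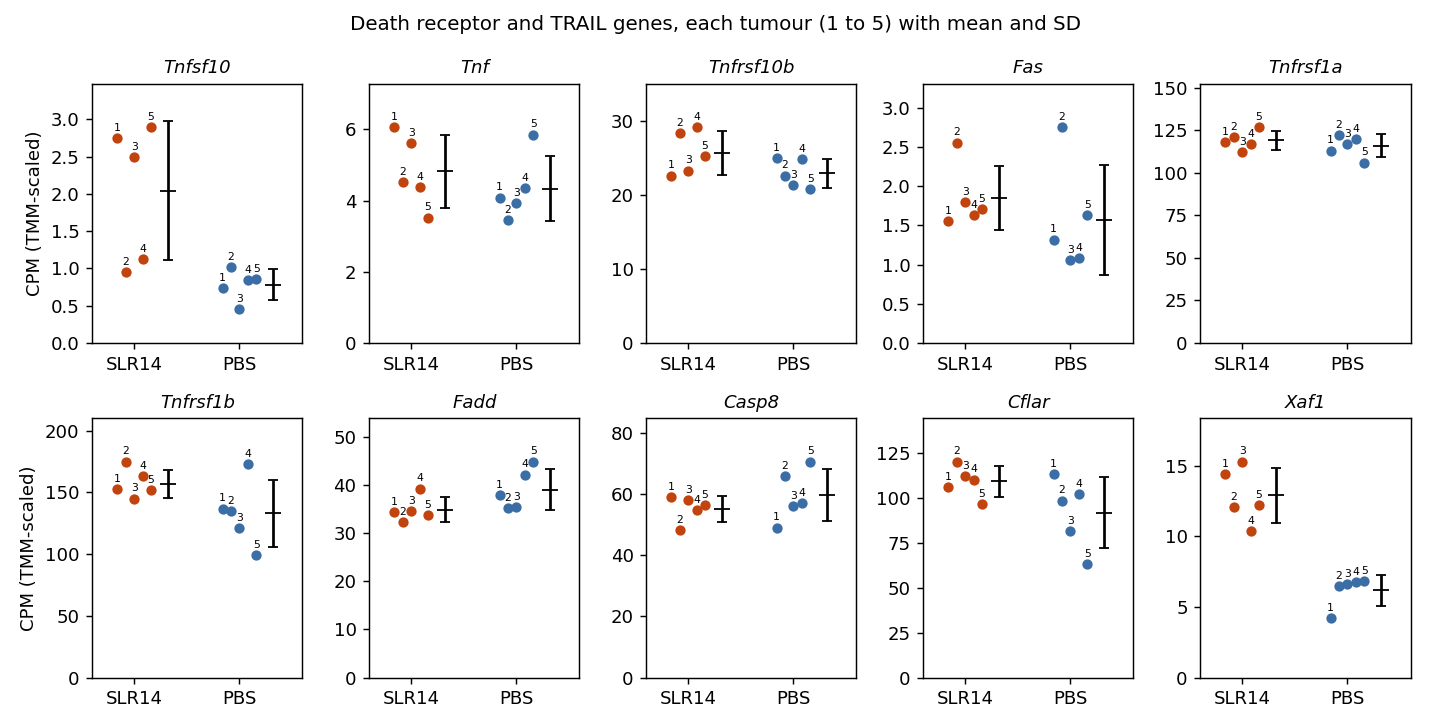
Each panel plots the TMM-scaled CPM of a gene in the 5 SLR14 tumours (left, orange, numbered by replicate) and the 5 PBS tumours (right, blue), with the mean and SD in black. Xaf1 is at 10.4 to 15.3 CPM in SLR14 and 4.22 to 6.82 CPM in PBS tumours, with no overlap, while the other 9 genes overlap between the groups.

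Xaf1 encodes XIAP-associated factor 1, a zinc-finger protein that binds XIAP and is known as an interferon-inducible gene. SLR14 tumours 1 to 5 had 14.4, 12.1, 15.3, 10.4 and 12.2 CPM of Xaf1, and PBS tumours 1 to 5 had 4.22, 6.51, 6.64, 6.76 and 6.82 CPM. Every SLR14 tumour lay above every PBS tumour, as did 1.92% of all genes tested, while 3.24% had groups that did not overlap in either direction. The mean was 12.9 ± 1.95 CPM in SLR14 and 6.19 ± 1.11 CPM in PBS tumours (SD, n = 5 each), a log2 fold change of 1.06 (SE 0.16, 95% interval 0.72 to 1.40, edgeR adjusted p = 0.00495). In order of p, Xaf1 was number 38 of the 15883 genes. The rise was called in all 19 alternative fits, with log2 fold changes of 0.95 to 1.13. PBS 1 had the lowest value of its group, and without it the log2 fold change was 0.95 (SE 0.14, edgeR adjusted p = 0.0087). Without SLR14 2 and PBS 5 it was 1.11 (edgeR adjusted p = 0.00775). Summed neutrophil markers (8 of 10 in the table) also did not overlap between the groups. They were at 25.8 to 58.9 CPM in SLR14 and 14.3 to 22.8 CPM in PBS tumours, with Ngp at 0 in every PBS tumour. Of the 6 tested markers 3 were called higher, against 0.674% of all genes. Csf3r, Cxcr2 and Mmp9 were not called (edgeR adjusted p = 0.562, 0.111 and 0.464). Csf3r and Mmp9 had the highest PBS means of these markers, 9.18 and 4.82 CPM. Summed dendritic cell markers (7 of 7 in the table) were at 14.9 to 29.8 CPM in SLR14 and 25.2 to 64.8 CPM in PBS. Of the 5 tested markers 2 were called lower, against 0.29% of all genes. These were Cd209a (log2 fold change -4.36, edgeR adjusted p = 0.000129) and Zbtb46 (-0.93, adjusted p = 0.0398). Itgax had the highest mean of the 7 in both groups, 16.8 ± 4.91 CPM in SLR14 and 27.7 ± 12.8 CPM in PBS tumours. It was not called (edgeR adjusted p = 0.37). Clec9a was at 0 in at least 1 SLR14 tumour. The part of either cell type in the Xaf1 values was not tested.

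Xiap, whose product Xaf1 binds, was at 76.5 ± 5.29 CPM in SLR14 and 77.8 ± 6.63 CPM in PBS tumours (SD, n = 5 each; edgeR adjusted p = 0.931). The log2 ratio of Xaf1 to Xiap was -2.52, -2.59, -2.41, -2.75 and -2.64 in SLR14 tumours 1 to 5, against -4.25, -3.67, -3.37, -3.43 and -3.62 in PBS tumours 1 to 5. The ratio was 2.13-fold higher after SLR14 with no overlap (two-sided exact permutation p = 0.00794, the smallest that 252 assignments give, or 0.0238 adjusted over the 3 ratios compared). Because the ratio is taken within a tumour, library scaling does not enter it. Xiap hardly differed between the groups, so the ratio repeats the Xaf1 difference and is not independent of it.

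The genes whose pattern over the 10 tumours was most like that of Xaf1 were Ifitm3, Lgals3bp and Cd72, out of 12123 genes compared. The comparison ran over both groups, so it favoured genes that differ between groups as Xaf1 does. Their differences between groups therefore carry no independent weight. Likeness was the mean absolute difference in log2(CPM + 1), each gene centred on its own mean. It was 0.116 for Ifitm3, an interferon-induced membrane protein that restricts virus entry, 0.126 for Lgals3bp, a secreted galectin-binding glycoprotein, and 0.126 for Cd72, a C-type lectin-like receptor known from B cells. Ifitm3 was at 304 ± 38.9 CPM in SLR14 and 145 ± 20.4 CPM in PBS tumours (SD, n = 5 each; log2 fold change 1.07, edgeR adjusted p = 0.000768). Cd72 had a log2 fold change of 0.86 (edgeR adjusted p = 0.034) and lost its call in 10 of 19 alternatives, including the 8 fits that left out a single tumour other than PBS 5 or SLR14 2 (adjusted p 0.0506 to 0.108 in edgeR).

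Tnfsf10 encodes TRAIL, a membrane-bound or shed ligand that immune cells display and that interferons are known to induce. It was at 2.75, 0.952, 2.49, 1.12 and 2.90 CPM in SLR14 tumours 1 to 5, and at 0.732, 1.02, 0.452, 0.838 and 0.852 CPM in PBS tumours 1 to 5. SLR14 1, 3 and 5 lay well above all PBS tumours, SLR14 4 lay just above them, and SLR14 2 lay within their range. These are low levels: the count was 16 in SLR14 2 and 22 in SLR14 4, against 67 to 109 in the other SLR14 and 12 to 32 in the PBS tumours. The mean was 2.04 ± 0.932 CPM in SLR14 and 0.778 ± 0.208 CPM in PBS tumours (SD, n = 5 each), with a log2 fold change of 1.41 (SE 0.34, 95% interval 0.68 to 2.14, edgeR adjusted p = 0.0801). It passed in DESeq2 (adjusted p = 0.00496), which called 2.19% of its genes against 0.913% for limma voom, in edgeR without SLR14 2 (log2 fold change 1.58, adjusted p = 0.0334) and in edgeR without both SLR14 2 and PBS 5 (1.6, adjusted p = 0.0351). It did not pass in the other 16 alternatives. SLR14 2 and 4, the tumours with the least Tnfsf10 of their group, were also the shallowest libraries, and they had the highest summed neutrophil markers, 58.9 and 44.3 CPM against 25.8 to 33.1 CPM in the other SLR14 tumours. The part of depth or neutrophils in the Tnfsf10 values was not tested.

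Tnf, the other ligand among the 10 and the founding cytokine of its family, was at 6.07, 4.52, 5.61, 4.38 and 3.52 CPM in SLR14 tumours and at 4.08, 3.46, 3.92, 4.34 and 5.85 CPM in PBS tumours. The groups overlapped over most of their range. Its log2 fold change was 0.16 (95% interval -0.25 to 0.57, edgeR adjusted p = 0.762). Leaving out 1 tumour moved it between 0.05 (without SLR14 1) and 0.28 (without PBS 5), with 0.09 without PBS 2 and 0.26 without SLR14 5, and edgeR called none of these.

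The promoters of Xaf1 and Tnfsf10, the genes with the largest fold changes, are shown beside that of Casp8, which did not pass and shares letters with Xaf1. Promoter windows of 300 bases, from 250 before to 50 after the gene start, were available from RefSeq on GRCm38.p6 for 9 of the 10 genes. Tnfrsf10b had none. Capitals mark matches on either strand to AANNGAAA, the core that interferon regulatory factors are known to bind.
Xaf1, chr11:72301379-72301678, plus strand: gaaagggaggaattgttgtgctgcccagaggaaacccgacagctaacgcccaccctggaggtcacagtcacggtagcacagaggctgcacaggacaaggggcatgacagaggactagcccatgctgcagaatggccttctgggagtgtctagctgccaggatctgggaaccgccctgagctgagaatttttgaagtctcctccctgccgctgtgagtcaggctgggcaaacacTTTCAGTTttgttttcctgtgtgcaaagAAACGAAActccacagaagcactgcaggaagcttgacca
Tnfsf10, chr3:27316827-27317126, plus strand: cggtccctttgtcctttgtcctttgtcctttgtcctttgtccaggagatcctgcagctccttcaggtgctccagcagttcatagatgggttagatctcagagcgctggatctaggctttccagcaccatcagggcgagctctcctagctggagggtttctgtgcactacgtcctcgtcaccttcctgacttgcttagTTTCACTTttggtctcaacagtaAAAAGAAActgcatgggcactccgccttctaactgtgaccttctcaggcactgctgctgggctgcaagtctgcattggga
Casp8, chr1:58802252-58802551, plus strand: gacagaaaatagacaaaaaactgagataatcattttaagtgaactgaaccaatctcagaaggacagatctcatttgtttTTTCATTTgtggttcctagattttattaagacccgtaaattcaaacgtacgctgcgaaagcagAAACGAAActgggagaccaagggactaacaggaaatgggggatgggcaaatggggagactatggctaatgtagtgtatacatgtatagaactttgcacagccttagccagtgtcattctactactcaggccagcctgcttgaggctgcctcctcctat
Both Xaf1 and Casp8 hold AAACGAAA, which begins 11 bases after the start in Xaf1 and 108 bases before it in Casp8, while Tnfsf10 holds TTTCACTT 53 bases before its start. The core was found in 6 of the 9 windows (Fas, Tnfsf10, Tnfrsf1b, Casp8, Cflar and Xaf1) and in 23.9% of all 32851 windows. The longer core of the interferon-stimulated response element, GAAA repeated after any 2 bases and so always holding the shorter core, was found in Tnfrsf1b and Cflar and in 3.44% of all windows. The STAT motif TTCNNNGAA was found in Fas, Tnfrsf1a and Tnfrsf1b and in 8.3% of all windows. These matches are letters in a window and describe no measured binding. The core was present in Xaf1, which passed, and in 5 genes that did not.

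For the receptors, Tnfrsf10b, the death-domain receptor for TRAIL in mice, was at 22.6, 28.4, 23.3, 29.2 and 25.2 CPM in SLR14 tumours 1 to 5, against 25, 22.6, 21.3, 24.8 and 20.8 CPM in PBS tumours 1 to 5. SLR14 2, 4 and 5 lay above all PBS tumours and the others within their range. Its log2 fold change was 0.17 (95% interval -0.06 to 0.39, edgeR adjusted p = 0.584), and 0.09 without PBS 5 and SLR14 2 (adjusted p = 0.812).

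Fas, the receptor for Fas ligand, was among the lowest of the 10 genes, at 1.56, 2.56, 1.80, 1.63 and 1.71 CPM in SLR14 tumours and 1.32, 2.76, 1.06, 1.08 and 1.63 CPM in PBS tumours. In each group tumour 2 was the highest, at about the same level, and the groups overlapped. Its interval was the widest of the receptors (log2 fold change 0.23, 95% interval -0.38 to 0.84, edgeR adjusted p = 0.771), with a log2 fold change of 0.54 without PBS 2 (adjusted p = 0.48) and of 0.10 without SLR14 2 (adjusted p = 0.932).

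Tnfrsf1a, the widely expressed TNF receptor with a death domain, was the steadiest of the 10 genes, at 112 to 127 CPM in SLR14 tumours (median 118) and 106 to 122 CPM in PBS tumours (median 117). Its coefficient of variation was 4.82% in SLR14 and 5.80% in PBS tumours. The 95% interval of its log2 fold change, -0.13 to 0.21, corresponds to a fold change of 0.911 to 1.16 (edgeR adjusted p = 0.858).

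Tnfrsf1b, the TNF receptor of immune and endothelial cells that lacks a death domain, was at 153, 175, 145, 163 and 152 CPM in SLR14 tumours and 137, 135, 121, 173 and 99.0 CPM in PBS tumours. All but PBS 4 lay below the SLR14 tumours, and PBS 5 was the lowest. The log2 fold change was 0.24 (95% interval -0.04 to 0.52, edgeR adjusted p = 0.53), or 0.14 without PBS 5 (adjusted p = 0.631) and 0.10 without PBS 5 and SLR14 2 (adjusted p = 0.769). Summed macrophage and monocyte markers (11 of 11 in the table) were at 1860 to 2280 CPM in SLR14 and 1860 to 2330 CPM in PBS tumours, and summed endothelial markers (7 of 7) at 121 to 176 CPM in SLR14 and 101 to 198 CPM in PBS tumours, with PBS 5 the lowest PBS tumour in both sums. Their part in the Tnfrsf1b values was not tested.

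The log2 ratio of Tnfrsf1b to Tnfrsf1a was 0.40 ± 0.104 in SLR14 and 0.18 ± 0.236 in PBS tumours (SD, n = 5 each), with overlap (two-sided exact permutation p = 0.103, 0.155 adjusted over the 3 ratios). The difference of 0.22 was 0.15 without PBS 5 (exact permutation p = 0.19) and 0.12 without PBS 5 and SLR14 2 (exact permutation p = 0.343). Without PBS 4 it was 0.31 and passed (exact permutation p = 0.0238, adjusted 0.0357).

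Among the genes of the signalling complex, Fadd, the death-domain adaptor, was at 34.3, 32.3, 34.6, 39.2 and 33.7 CPM in SLR14 tumours, against 37.9, 35.1, 35.3, 42.1 and 44.8 CPM in PBS tumours. All but SLR14 4 lay below every PBS tumour. Its log2 fold change was -0.16 (95% interval -0.37 to 0.04, edgeR adjusted p = 0.564), and -0.09 without PBS 5 and SLR14 2 (adjusted p = 0.756).

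Casp8, the initiator caspase, was at 59.0, 48.1, 57.9, 54.8 and 56.5 CPM in SLR14 tumours and 49.0, 65.9, 56.0, 57.1 and 70.6 CPM in PBS tumours. The SLR14 values lay inside the PBS range except that of SLR14 2, which was just under it (log2 fold change -0.11, 95% interval -0.34 to 0.12, edgeR adjusted p = 0.709). The interval corresponds to a fold change of 0.789 to 1.09. The log2 fold change was -0.05 without PBS 5, -0.06 without SLR14 2, -0.07 without PBS 2 and -0.17 without PBS 1, and its size was under 0.01 without both PBS 5 and SLR14 2 (edgeR adjusted p 0.541 to 0.991).

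Cflar was at 106, 120, 112, 110 and 96.3 CPM in SLR14 tumours, against 113, 98.3, 81.6, 102 and 63.2 CPM in PBS tumours. PBS 5 was the lowest of all tumours, and PBS 1, 2 and 4 lay within the SLR14 range. The log2 fold change was 0.25 (95% interval -0.05 to 0.54, edgeR adjusted p = 0.542), and 0.13 without PBS 5 (adjusted p = 0.654) or 0.09 without PBS 5 and SLR14 2 (adjusted p = 0.783).

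The log2 ratio of Cflar to Casp8 was 0.85, 1.32, 0.95, 1.00 and 0.77 in SLR14 tumours 1 to 5, against 1.2, 0.58, 0.54, 0.84 and -0.16 in PBS tumours 1 to 5. PBS 5 was the only tumour with less Cflar than Casp8 by CPM, a ratio that is not scaled for gene length. The groups' means of 0.98 and 0.60 differed by 0.38 and did not pass (two-sided exact permutation p = 0.159, also 0.159 adjusted over the 3 ratios). The difference was 0.18 without PBS 5 (exact permutation p = 0.317), 0.10 without PBS 5 and SLR14 2 (exact permutation p = 0.571) and 0.53 without PBS 1, where it passed (exact permutation p = 0.0159, adjusted 0.0238).

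**Figure D2:**
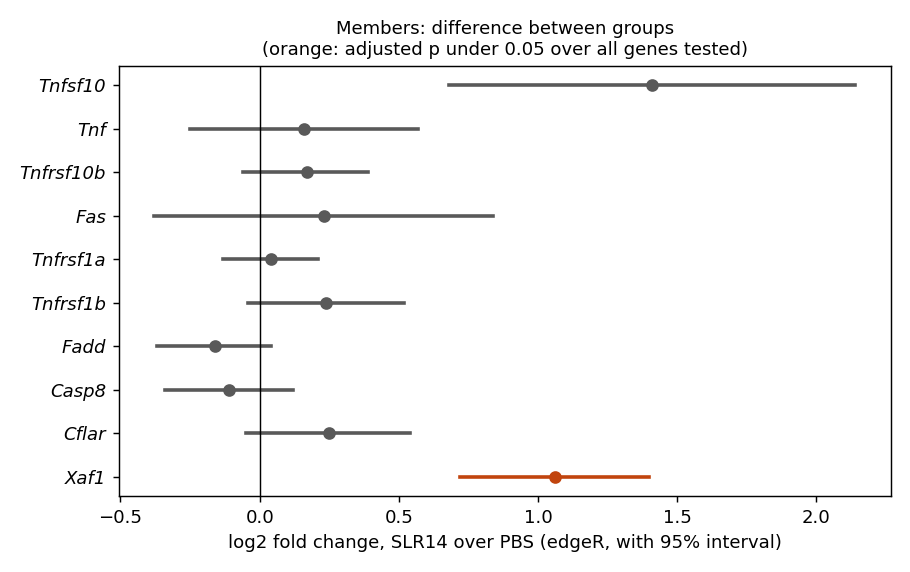
The horizontal axis is the log2 fold change of SLR14 over PBS from edgeR, with points for the estimate and bars for its 95% interval, 1 line per gene. Xaf1 (orange) is called at 1.06, the interval of Tnfsf10 runs from 0.68 to 2.14 without a call after adjustment, and the intervals of the other 8 genes include 0.

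Levels could be set against each other only after division by gene length. In CPM per kilobase of merged exons, the order in PBS tumours was Tnfrsf1a (44.7), Tnfrsf1b (34.9), Casp8 (20.6), Fadd (10), Cflar (7.23), Tnfrsf10b (4.2), Tnf (2.64), Xaf1 (1.32), Fas (0.761) and Tnfsf10 (0.148). Tnfrsf1a and Tnfrsf1b overlapped between PBS tumours (40.7 to 47.2 and 25.9 to 45.4 CPM per kilobase), as did Xaf1 and Fas (0.899 to 1.45 and 0.512 to 1.34). These ranges alone do not order either pair, and the length-scaled order within each tumour was not compared. The order of the means was the same in SLR14 tumours. In SLR14 tumours Fadd and Cflar also overlapped (8.28 to 10.1 and 7.60 to 9.45), and Xaf1 at 2.75 overlapped Tnf at 2.94. TRAIL was the lowest of the 10 genes in both groups, at 0.388 ± 0.177 CPM per kilobase in SLR14 and 0.148 ± 0.0396 in PBS tumours (SD, n = 5 each). Its receptor Tnfrsf10b stood at 4.72 ± 0.543 in SLR14 and 4.2 ± 0.357 in PBS tumours. The merged length counts exons of every isoform, 12.7 kilobases for Cflar, so values of genes with many isoforms are low estimates.

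**Figure D3:**
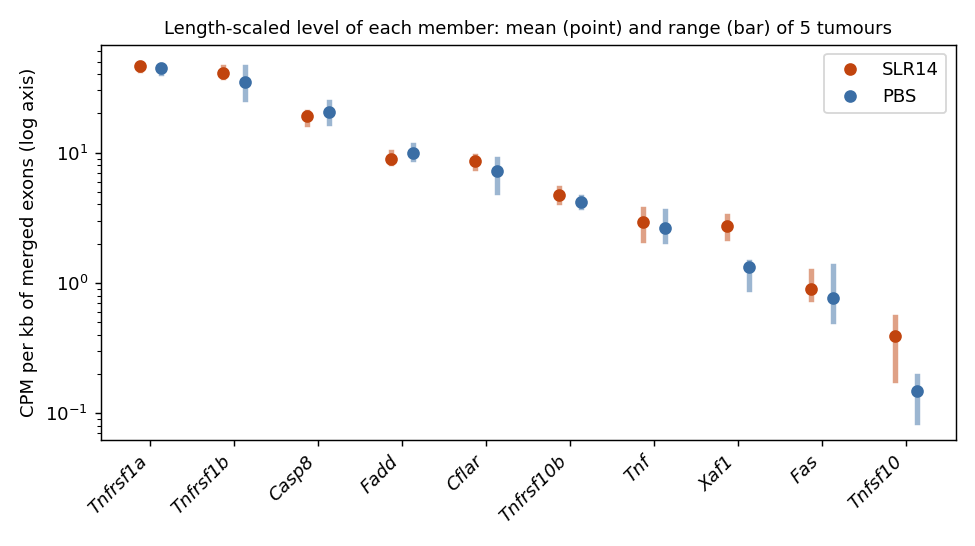
Points give the mean, and bars the range, of CPM per kilobase of merged exons over 5 SLR14 (orange, left) and 5 PBS tumours (blue, right) on a log axis, genes ordered by their PBS mean. The 10 genes span from 0.148 (Tnfsf10) to 44.7 (Tnfrsf1a) CPM per kilobase in PBS tumours, and the ranges of the groups are apart for Xaf1 alone.

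Interferon-stimulated genes give a scale for these differences. Of 9 examined, 8 rose, 0 fell and 1 did not pass (edgeR, adjusted p under 0.05), with a median log2 fold change of 1.62. Over all genes tested 0.674% were called higher. The list was chosen with results of these tumours known, so its count carries no independent weight. Cxcl10 was at 8.70, 2.68, 6.80, 5.6 and 9.94 CPM in SLR14 tumours 1 to 5, against 0.801 to 1.97 CPM in PBS tumours. Mx1, an antiviral GTPase, was at 8.0, 2.38, 8.93, 4.03 and 3.76 CPM in SLR14 tumours, against 1.39 to 2.09 CPM in PBS tumours. The lowest SLR14 tumour was SLR14 2 for Cxcl10, Mx1, Ifit1, Ifit3 and Oasl2, SLR14 5 for Irf7, Rsad2 and Isg15, and SLR14 4 for Usp18. It was SLR14 2 for Tnfsf10 and SLR14 4 for Xaf1.

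**Figure D4:**
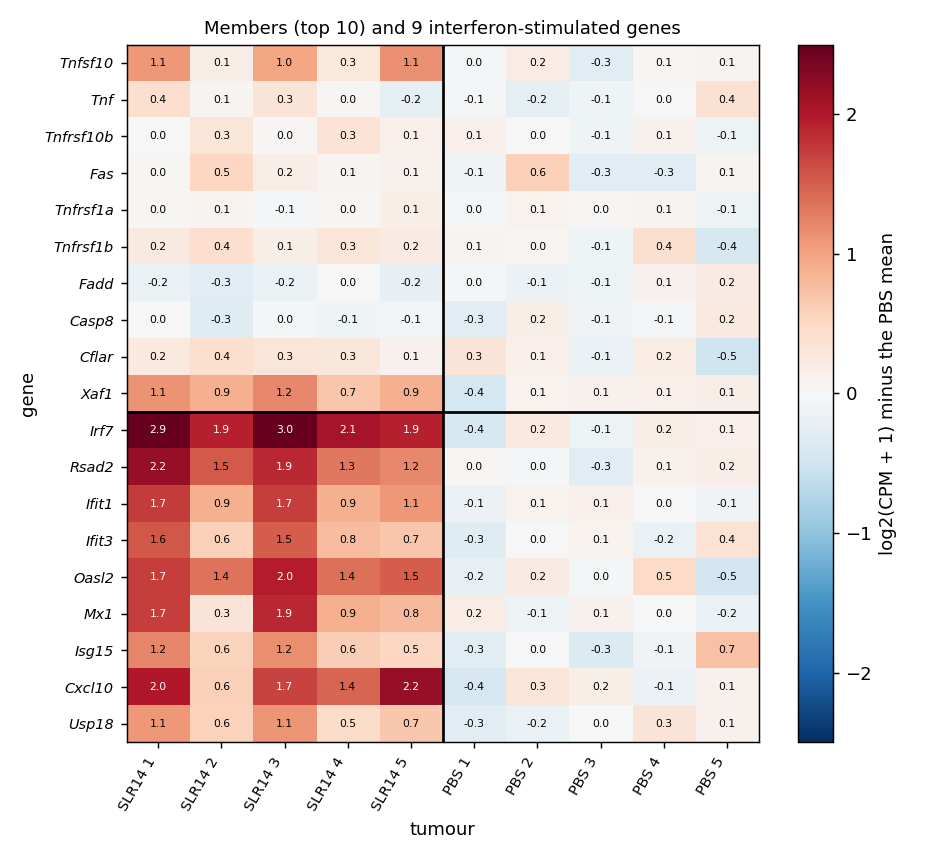
Colour and number give log2(CPM + 1) minus the PBS mean of the gene, for the 10 death receptor and TRAIL genes (upper rows) and 9 interferon-stimulated genes (lower rows) in SLR14 tumours 1 to 5 (left) and PBS tumours 1 to 5 (right). Xaf1 is raised in all 5 SLR14 tumours, Tnfsf10 mainly in SLR14 1, 3 and 5, and the remaining 8 genes stay pale in both groups. The colour scale is saturated for Irf7 in SLR14 1 and 3.

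The wider pathway was examined through 58 other genes in 5 role lists, of which 55 were in the table and tested. Of these 1 rose, 0 fell and 54 did not pass, with 28 positive and 27 negative fold changes and a median of 0.00 on the log2 scale. Over all genes tested, 0.963% were called. The gene that rose was Daxx, which encodes a death domain-associated protein first described as a partner of Fas and now known mainly as a nuclear histone chaperone. Daxx was at 67.3, 61.4, 66.0, 69.8 and 66.2 CPM in SLR14 tumours, against 52.9, 52.3, 53.2, 53.3 and 48.4 CPM in PBS tumours, with no overlap. Its log2 fold change of 0.35 (SE 0.08, edgeR adjusted p = 0.0479) stayed at 0.31 to 0.37 in all alternatives, but the call was lost in 14 of 19. These included the 9 fits that left out a single tumour other than PBS 5 (adjusted p 0.0598 to 0.161 in edgeR) and limma voom (adjusted p = 0.0537).

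None of 11 other receptors and decoys passed in edgeR, though the unadjusted p was under 0.05 for 4, against 10.8% of all genes, and 2 were higher in every SLR14 than in any PBS tumour, against 1.92% of all genes. Those 2 were Tnfrsf22 and Tnfrsf23, mouse receptors that bind TRAIL but lack a death domain. Tnfrsf23 was at 116, 155, 124, 123 and 103 CPM in SLR14 tumours, against 88.4, 91.5, 41.6, 101 and 39.0 CPM in PBS tumours (log2 fold change 0.78, SE 0.25, edgeR adjusted p = 0.229). PBS 3 and 5 were far below the other PBS tumours. The log2 fold change of Tnfrsf23 was 0.61 without PBS 5 and 0.52 without PBS 5 and SLR14 2. Tnfrsf22 was at 9.31, 9.94, 9.04, 12.5 and 11.4 CPM in SLR14 tumours, against 7.53, 8.82, 3.77, 5.96 and 3.72 CPM in PBS tumours (log2 fold change 0.80 with an SE of 0.23, adjusted p = 0.157 in edgeR). Tnfrsf22 passed in DESeq2 (adjusted p = 0.0318). Again PBS 3 and 5 were the lowest. Tnfrsf26, a neighbouring relative, and Eda2r, a receptor for ectodysplasin A2, made up the 4; both were named after their values were seen. Tnfrsf26 was at 2.39 ± 0.819 CPM in SLR14 and 1.47 ± 0.324 CPM in PBS tumours (SD, n = 5 each; log2 fold change 0.67, edgeR adjusted p = 0.422). Eda2r was at 0.582 ± 0.129 CPM in SLR14 and 1.08 ± 0.605 CPM in PBS tumours (log2 fold change -0.89, edgeR adjusted p = 0.446). Tnfrsf22, Tnfrsf23 and Tnfrsf26 are similar in sequence, and reads shared between copies would make the values of each uncertain.

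Of 7 listed ligands, Ltb, Tnfsf12, Tnfsf14 and Tnfsf15 were tested and 0 passed in edgeR or DESeq2, with 2 at an unadjusted p under 0.05, against 10.8% of all genes. Fasl, Lta and Tnfsf11 were not found under these symbols in the count table. Ltb, which encodes lymphotoxin beta, was at 4.24 ± 1.09 CPM in SLR14 and 2.58 ± 0.945 CPM in PBS tumours (SD, n = 5 each; edgeR adjusted p = 0.37). Tnfsf14, the ligand LIGHT, was at 1.33 ± 0.367 CPM in SLR14 and 0.803 ± 0.306 CPM in PBS tumours (edgeR adjusted p = 0.427). Summed T and NK cell markers (11 of 13 in the table), a known source of these ligands, were at 10 to 21.0 CPM in SLR14 and 6.58 to 18.1 CPM in PBS tumours, with Cd3e and Prf1 at 0 in at least 1 PBS tumour. Cd4 had the highest mean of these markers in both groups and ran the other way. It was at 6.41 ± 2.33 CPM in SLR14 and 9.56 ± 3.74 CPM in PBS tumours (SD, n = 5 each, edgeR adjusted p = 0.483). Each of the other 10 markers had a higher mean in SLR14 tumours. Of the 6 tested markers 2 rose, Gzma and Gzmb, against 0.674% of all genes called higher. The part of T and NK cells in the ligand values was not tested.

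Of 13 adaptors, kinases and ubiquitin ligases, 12 did not pass. Rnf31, the catalytic subunit of the linear ubiquitin ligase that stabilises TNF receptor complexes, was at 31.3 ± 1.38 CPM in SLR14 and 25.2 ± 5.00 CPM in PBS tumours (SD, n = 5 each, log2 fold change 0.31, edgeR adjusted p = 0.391). Without PBS 5 the log2 fold change of Rnf31 was 0.21. None of the 12 genes of the executioner and mitochondrial step passed in edgeR or DESeq2, nor at an unadjusted p under 0.05 (0 genes). Casp9, the initiator caspase of the mitochondrial route, was at 47.1 ± 2.63 CPM in SLR14 and 42.2 ± 5.04 CPM in PBS tumours (edgeR adjusted p = 0.566). Htra2, a mitochondrial protease that counters IAP proteins, was at 69.7 ± 11.8 CPM in SLR14 and 85.7 ± 24.5 CPM in PBS tumours (edgeR adjusted p = 0.57). The log2 fold change of Htra2 was -0.3, or -0.13 without PBS 5 and -0.06 without PBS 5 and SLR14 2.

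Likewise 0 of the 15 inhibitors passed in edgeR or DESeq2, nor at an unadjusted p under 0.05 (0 genes). Pea15a, a death-effector-domain protein that can bind Fadd and caspase-8, was at 447 ± 10.7 CPM in SLR14 and 499 ± 75.9 CPM in PBS tumours (SD, n = 5 each; edgeR adjusted p = 0.613). Faim2, an inhibitor of Fas-driven death best known from neurons, was at 5.06 ± 1.04 CPM in SLR14 and 4.24 ± 0.236 CPM in PBS tumours (edgeR adjusted p = 0.601).

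**Figure D5:**
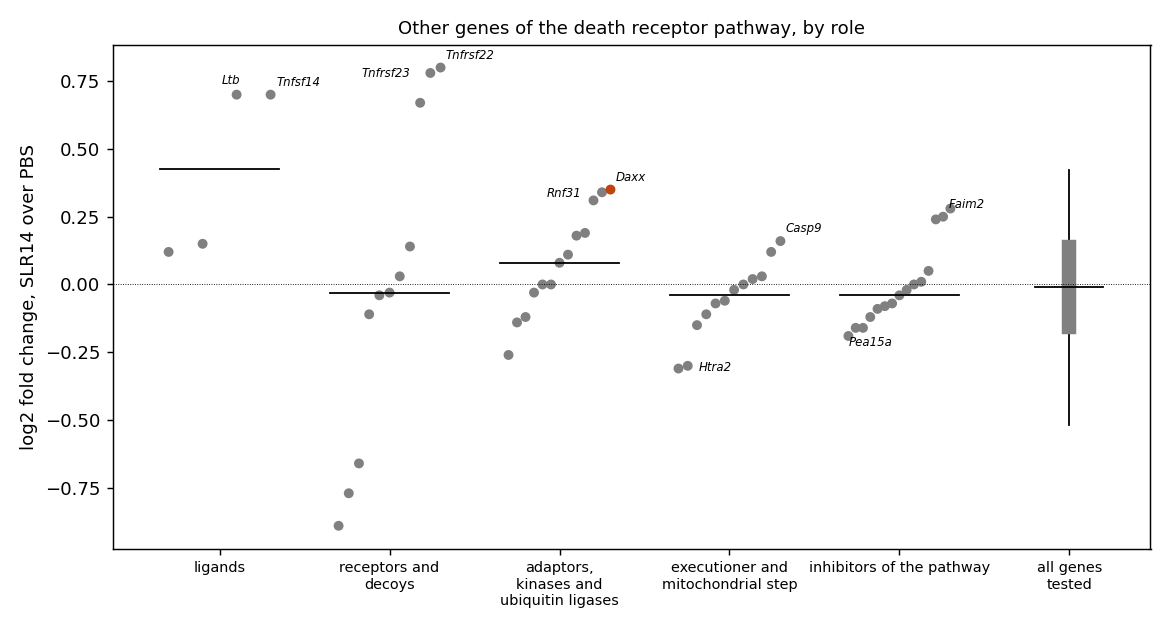
The vertical axis is the log2 fold change of SLR14 over PBS for 55 other pathway genes by role (points, orange where called, black line at the median of each role), beside all genes tested (grey bar from the 25th to the 75th percentile, thin line from the 5th to the 95th percentile). Daxx at 0.35 is the only gene called, and Tnfrsf22 and Tnfrsf23 lie highest among the receptors without passing.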

How the data were processed

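RNA from 10 tumours was sequenced after ribosomal depletion and oligo(dT) enrichment, per the labels' protocols. The deposited raw table holds whole-number counts per gene. A second deposited table holds a normalized signal, these counts divided by 1 factor per tumour, and served 1 alternative. The submitters' processing notes name STAR, Trim Galore 0.6.7, the mm39 genome and DESeq2 1.36.0. No source used here gives the counting program, the annotation or the strand setting, so overlapping genes (Gm37760 with Casp8, Faddos with Fadd, Gm27818 with Fas in GENCODE M21) may share reads. The 74 rows without a symbol (0.0295% of counts) stayed in under their gene identifiers.

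The fit used edgeR 4.0.16 in R 4.3.3: filterByExpr (minimum count 10), TMM, glmQLFit and glmQLFTest of SLR14 against PBS over all 10 tumours without covariates, with Benjamini-Hochberg adjustment over 15883 genes at 0.05. It was tested on simulated data. Standard errors are the absolute log2 fold change divided by the square root of F. CPM are TMM-scaled. Ratios were compared by exact permutation. Alternatives used DESeq2 1.42.0 and limma 3.58.1. Exon lengths came from GENCODE M21 (GRCm38), not the submitters' build. Named pathway genes were those called and the 2 with the smallest p of each role, and likeness to Xaf1 was ranked among tested genes with a mean CPM of at least 1, without predicted genes and pseudogenes. Xiap was named as the partner of Xaf1. No library was a copy of another of its group: for the 20 pairs inside groups, chi-square divided by its degrees of freedom was 7.66 to 134. Pairs that included PBS 5 were at 94.2 to 134, and all other pairs at 7.66 to 38.3. Pairs across groups were not checked in this way. The design text gives 5 mice per group. The members, lists and tests were chosen with earlier results of these data known. Of the interferon-stimulated list, 1 gene is not reported here.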

Additional observations from a re-analysis of the deposited data

Results flagged for a closer look

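Among 52 groups of 5 tumours examined (the named genes and the 3 ratios), 5 held a tumour far from the others by Dixon's criterion, where chance gives about 1 in 20. SLR14 2 was high for Fas, at 2.56 CPM against 1.56 to 1.80 CPM in the other SLR14 tumours. PBS 1 was low for Xaf1 at 4.22 CPM and for Cd72 at 13.3 CPM. PBS 5 was low for Daxx at 48.4 CPM and high for Faim2 at 4.65 CPM.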

How the results depend on the processing

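Over 19 alternatives the number of all genes called ranged from 69 to 407, against 153. DESeq2 called 407 (251 higher, 156 lower), and the fit with a replicate block called 78 (51 higher, 27 lower). Without SLR14 2 and PBS 5 together 215 were called (141 higher, 74 lower). Leaving out 1 tumour gave 69 to 194 calls, 44 to 123 higher and 25 to 71 lower. Of the 10 members, 2 were called by DESeq2 and without SLR14 2 and PBS 5, and 1 to 2 with 1 tumour left out, the second being Tnfsf10 each time. Of the pathway genes, DESeq2 called 2, and upper-quartile factors, no filter, limma voom, limma on the authors' normalized values and the replicate block called 0 each, with 0 to 1 when 1 tumour was left out. The difference in log2 ratio with 1 tumour left out was 0.18 to 0.53 for Cflar to Casp8, 0.15 to 0.31 for Tnfrsf1b to Tnfrsf1a and 0.94 to 1.16 for Xaf1 to Xiap. The last did not pass without SLR14 2 and PBS 5 (1.10, exact permutation p = 0.0286, the smallest that 4 against 4 tumours give, 0.0857 adjusted). Passing was not possible for it under the replicate block (1.09, exact permutation p = 0.0625, the smallest that 5 sign-flipped pairs give, 0.188 adjusted). No pairing by the titles' numbers was seen: deviations of same-numbered tumours correlated at -0.25 to 0.138 across genes. Of the SLR14 tumours, 0 of 5 correlated best with its own number. Differently numbered tumours correlated at -0.411 to 0.336, so a weak pairing could be missed. Xaf1 kept its call under the block (adjusted p = 0.0365). Counts per tumour were low for Tnfsf10 (12 to 109) and Fas (28 to 87), which limits their precision. The causes of these differences were not tested.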

Other observations

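PBS 5 was the highest or lowest PBS tumour for 8 of the 10 genes, highest for Tnf, Fadd, Casp8 and Xaf1 and lowest for Tnfrsf10b, Tnfrsf1a, Tnfrsf1b and Cflar. SLR14 2 was the highest or lowest SLR14 tumour for 6, highest for Fas, Tnfrsf1b and Cflar and lowest for Tnfsf10, Fadd and Casp8. PBS 5 had the highest summed erythroid markers, 160 CPM against 40.2 to 55.9 CPM in the other PBS tumours. SLR14 2 had 1.07 CPM of skeletal muscle markers, against 79.7 to 179 CPM in the other SLR14 tumours, and 436 CPM of fibroblast markers, against 1030 to 1500 CPM. The part of these tissues in the members' values was not tested.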
